A study of Mus musculus with 12 samples.

Results

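The comparison covers 4 of the 12 ATAC-seq libraries of the series, the 2 from LPS-treated aged (24-month-old) mice and the 2 from LPS-treated middle-aged (14-month-old) mice. All 12 libraries were made from microglia of wild-type (WT) female mouse brains, and each pooled the cells of 2 to 3 mice, so that a library is a pool and not an animal. The study's methods describe microglia sorted by flow cytometry as CD11b+ CD45low cells, while the sample labels describe nuclei taken from frozen tissue, and these accounts were not reconciled. The mice had received lipopolysaccharide (LPS), a component of the bacterial envelope, or phosphate-buffered saline (PBS), the vehicle, by intraperitoneal injection at 3, 14 or 24 months of age, with 2 libraries for each age and treatment. The 4 PBS libraries of 14 and 24 months and the 4 libraries of young (3-month-old) mice entered only where they are named. The 4 peak lists were cut to the same length, 28578 peaks, by the peak area that the caller gives as its score, and overlapping peaks were merged into 33134 regions. A region was gained at 24 months if both aged lists and neither middle-aged list called it, and lost if both middle-aged lists and neither aged list did. By this rule 665 regions were gained, 2.01% of all regions, and 554 were lost, 1.67%, while 23217 were called in all 4 lists.

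Microglia are the resident macrophages of the brain and sense LPS through Toll-like receptor 4, which switches on NF-κB and AP-1 proteins (FOS and JUN). These factors bind mostly at enhancers, away from gene starts, and act there beside PU.1, the lineage factor of macrophages. Promoters of widely used genes, by contrast, often lie in CpG-rich DNA and are open in most cells. ATAC-seq marks open DNA of both kinds, because the Tn5 transposase inserts sequencing adapters where nucleosomes leave it free.

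Ranks here and below count only regions nearest a protein-coding gene whose symbol is not a Gm or Rik placeholder. The sequences of the 4 gained regions that ranked highest, and of 4 of the 5 highest lost regions (all but Synpo), are shown. As sets, the gained and lost regions differed in promoter-type DNA and in AP-1 matches. The AP-1 shares were close, however, when the first library of each age was read alone. Each is a stretch of the GRCm38 (mm10) reference around the summit of the highest peak, in lower case, with matches to the searched motifs in capitals, and carries the name of the nearest gene. The gained regions came first, and the lost regions begin with Cxcr5.
Agbl3 (chr6:34780785-34780885, plus strand): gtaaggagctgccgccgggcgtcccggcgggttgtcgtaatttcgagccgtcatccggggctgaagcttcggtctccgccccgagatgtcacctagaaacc
Ambra1 (chr2:91730499-91730599, plus strand): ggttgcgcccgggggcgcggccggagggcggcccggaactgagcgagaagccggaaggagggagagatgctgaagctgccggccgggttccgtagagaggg
Sephs1 (chr2:4881777-4881877, plus strand): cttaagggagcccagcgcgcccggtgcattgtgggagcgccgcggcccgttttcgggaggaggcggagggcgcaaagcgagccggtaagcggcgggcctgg
Cnpy4 (chr5:138187868-138187968, plus strand): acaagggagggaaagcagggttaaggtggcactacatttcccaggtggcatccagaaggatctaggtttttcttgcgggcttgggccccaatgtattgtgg
Cxcr5 (chr9:44526683-44526783, plus strand): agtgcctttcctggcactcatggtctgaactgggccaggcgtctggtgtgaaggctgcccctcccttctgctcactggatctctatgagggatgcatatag
Ifnb1 (chr4:88515785-88515885, plus strand): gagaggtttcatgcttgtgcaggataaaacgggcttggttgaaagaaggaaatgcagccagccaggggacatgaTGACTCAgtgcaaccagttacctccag
Zbtb7a (chr10:81143248-81143348, plus strand): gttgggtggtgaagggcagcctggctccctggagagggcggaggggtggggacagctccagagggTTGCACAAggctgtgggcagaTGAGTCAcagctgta
Tigd4 (chr3:84598142-84598242, plus strand): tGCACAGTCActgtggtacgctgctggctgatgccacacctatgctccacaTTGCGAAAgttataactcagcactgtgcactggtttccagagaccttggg
The stretches at Agbl3, Ambra1 and Sephs1 held 12, 12 and 14 CpG dinucleotides, against 1 or 2 in each of the 4 lost regions, and Cnpy4 held 1. The capitals mark the AP-1 motif TGANTCA near Ifnb1 and Zbtb7a, a degenerate C/EBP motif (TTACNNAA or TTGCNNAA) near Zbtb7a and Tigd4, and the NRF motif TGACNNNGC, read on the other strand, near Tigd4. The 4 gained stretches and that of Cxcr5 held no match to the 20 motifs searched, although in the wider window used for counting the Cnpy4 region held an AP-1 match and the Cxcr5 region an NF-κB match.

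Both ages held a library that stood apart. The list of the second 14-month LPS library was the shortest of all 12, with 28578 peaks against 36699 in the first, and therefore entered whole while the other lists were cut. The aged LPS lists held 35139 and 37160 peaks, and the 8 other lists between 35538 and 41501. The first middle-aged list thus lay between the aged lists and the second below both, and the difference of 3511 peaks between the means was smaller than that between the middle-aged replicates (exact permutation test, two-sided, p = 0.667, with 0.333 the smallest p that 2 against 2 libraries allow). The second 24-month LPS library was on average closer to the PBS lists. Its mean Jaccard index was 0.821 with the other 5 LPS lists and 0.841 with the 6 PBS lists. Its highest single index, however, was 0.859 with the first 3-month LPS list, against 0.835 to 0.850 with the PBS lists. The other 3 LPS libraries of these ages had mean indices of 0.838 to 0.852 with LPS lists and 0.762 to 0.784 with PBS lists. Results are therefore also given for the first library of each age alone, which leaves both of these libraries out. Of 10 microglial marker genes, 9 had a promoter peak in each of the 4 lists, and no list had one at any of the 12 monocyte and border macrophage, 13 lymphocyte, 10 astrocyte or 10 neuron markers. Of the others, 1 of 12 granulocyte markers, 1 to 3 of 10 oligodendrocyte markers and 2 to 3 of 10 endothelial markers had one. In bulk libraries, fewer open cells and less opening per cell cannot be told apart.

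The differences between aged and middle-aged lists overlapped with those between replicates. The first 24-month list held 2374 regions that the first 14-month list did not, and lacked 2321 that it had. For the second libraries of each age these numbers were 3753 and 2771. Within an age, the 2 aged lists held 2864 and 3363 regions that the other lacked, and the 2 middle-aged lists 2152 and 1722. The Jaccard index was 0.801 for the aged pair and 0.869 for the middle-aged pair, against 0.791 to 0.845 for the 4 pairs across ages. The first aged library shared more regions with each middle-aged library (0.845 and 0.830) than with its own replicate. The mean within ages exceeded the mean between them by 0.0161 (exact permutation over the 3 ways to pair 4 libraries, p = 0.333, the smallest possible), and the difference was -0.00282 in full-length lists. Among the PBS libraries of the same ages the excess was 0.0361, again with the smallest possible p of 0.333 (exact permutation).

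Which regions were members depended on where the lists were cut. Of the 665 gained regions 29 (4.36%), and of the 554 lost regions 13 (2.35%), were also gained or lost among the 20000 highest peaks of each list. With full-length lists, 1112 of 41510 regions were gained (2.68%) and 179 lost (0.431%), so that the ratio of gained to lost regions moved with the shorter second middle-aged list. Of the 665 gained regions, 557 overlapped a peak in at least one full-length middle-aged list, and of the 554 lost regions, 493 did so in an aged list. Most members thus sat near the point where the lists were cut, at peak areas of 287 and 327 in the aged lists, 315 in the first middle-aged list and the caller's own minimum of 200 in the second. The median member stood at percentile 10.2 and 15.7 of area in the 2 aged lists when gained, and at 10.5 and 12.7 in the 2 middle-aged lists when lost. The promoter region of Nr4a1 was called in the aged lists at percentiles of only 0.924 and 0.203, just inside the cut. At the other end, 805 regions missed only the second middle-aged list and 440 only the first, and so fell just outside the gained set. When the same regions were read in the full-length lists, 108 gained and 61 lost regions were absent from both lists of the other age.

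Of the 10 gained regions that ranked highest, all but the one 7.48 kb from Nup153, a nuclear pore gene, lay within 1 kb of a transcription start site. The region at the start of Agbl3, which encodes an enzyme that trims glutamates from tubulin (chr6:34780303-34781015), stood at percentiles 59.9 and 61.7 in the aged LPS lists and was in neither equal-length middle-aged list. It was called in all 8 other libraries, at percentiles of 46.4 to 73.0, so the 2 middle-aged LPS lists were the only ones of 12 without it. In full length, the first middle-aged list had it at percentile 13.9. The promoter of Cenps, a component of the kinetochore (chr4:149137128-149137753), stood at 44.7 and 54.3 in the aged lists. It was in neither middle-aged list even in full length, and in all 8 other lists at 40.5 to 57.3. Tns3, which encodes the focal adhesion protein tensin 3 (chr11:8663576-8664718), followed the same pattern, with 32.8 and 56.5 in the aged lists and no peak in either full-length middle-aged list.

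Replicates of the aged group were far apart at some of these promoters. At Sephs1, a selenophosphate synthetase relative (chr2:4881443-4882645), the percentiles were 26.0 and 78.7, and at Trmt13, a tRNA methyltransferase gene (chr3:116613844-116614634), 28.8 and 62.4. The promoter of Cnpy4, which takes part in the transport of Toll-like receptor 4 to the cell surface (chr5:138186956-138188040), stood at 31.0 and 68.2. Among the other libraries it was highest in the 24-month PBS pair, at 68.9 and 64.4, and between 12.3 and 17.0 in the 5 others that called it. The promoters of Ambra1, an autophagy regulator, of Rnaseh2b, a subunit of ribonuclease H2, and of Gmeb1, a DNA-binding protein, were called in 7, 8 and 8 of the other 8 libraries.

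Of the 10 lost regions that ranked highest, 8 lay outside promoters. The region in first place was at the promoter of Cxcr5, a chemokine receptor best known from B cells (chr9:44526481-44526962), with percentiles of 44.4 and 45.5 in the middle-aged LPS lists. Both 3-month LPS lists called it as well, at 34.5 and 39.6, and none of the 6 PBS lists did. In full length the aged LPS lists held it at 2.66 and 11.5, so it was weak there and not absent. A region 6.94 kb from Ifnb1, the gene of interferon-β (chr4:88515668-88515994), stood at 34.0 and 53.3 at 14 months, and was called in every equal-length list of 3 and 14 months and in none of 24 months. The intronic region nearest Zbtb7a, a zinc finger repressor gene (chr10:81142724-81143609), had percentiles of 51.1 and 29.6 at 14 months and was in no other of the 12 equal-length lists. Full-length aged lists held the Ifnb1 region at 17.5 and 20.1, and the first of them held the Zbtb7a region at 9.41.

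Other lost regions shared the LPS pattern of Cxcr5. An intronic region of Slco2b1, an organic anion transporter gene of homeostatic microglia (chr7:99699098-99699470), stood at 32.0 and 37.9 at 14 months and at 36.2 and 34.4 in the 3-month LPS lists. Regions near Capza2, which caps actin filaments, and B3galt5, a glycosyltransferase gene, and at the promoter of Synpo, which encodes the actin-associated protein synaptopodin, were likewise called in both 3-month LPS lists and in no PBS list. Synpo and Mepe were the 2 of the 10 without a peak in either full-length aged list. The regions of Tigd4 and Mepe were called in 4 and 2 of the 8 other libraries, with no such LPS pattern. The intronic region of Arrb1, the gene of β-arrestin 1, was called in 7 of the 8 other libraries and so was missing mainly from the aged LPS pair.

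The 8 lost promoters that ranked highest held 6 more genes, and most lay at the edge of the promoter window. The regions of Abcg4, a sterol transporter gene, Lypla2, a thioesterase gene, Zfp367 and Trim41 were 0.893 to 0.996 kb from the start site. Lypla2 stood at 23.9 and 27.3 at 14 months, in both 3-month LPS lists at 5.27 and 6.13, and in neither full-length aged list. Those at Hnrnpl and Mras, 0.12 and 0.178 kb away, were in none of the 8 other lists, with 17.9 and 15.0, and 3.12 and 28.6, at 14 months.

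**Figure D1:**
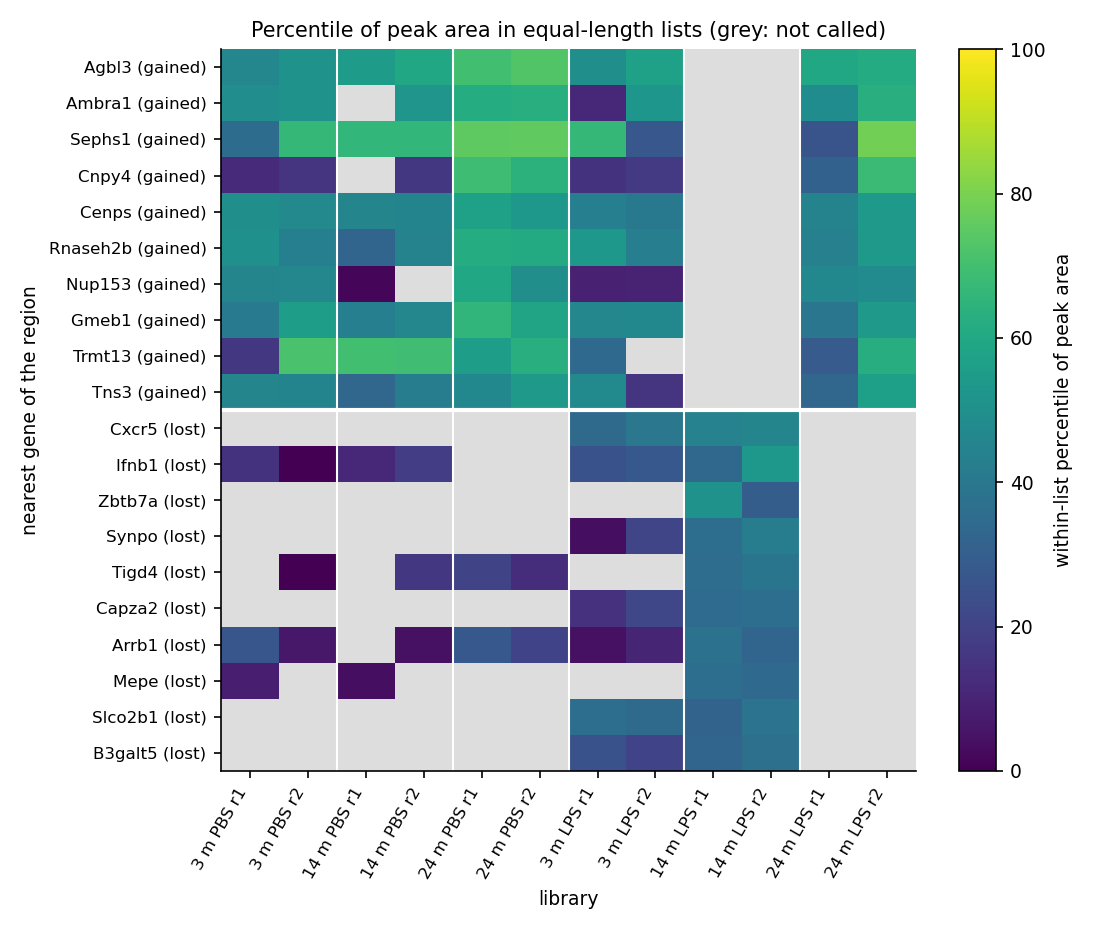
Within-list percentile of peak area (colour, 0 to 100) of the 10 gained and 10 lost regions that ranked highest, by nearest gene (rows) and library (columns, 3 m, 14 m and 24 m being months of age and r1 and r2 the replicates), with grey where the equal-length list did not call the region. The gained rows are filled in nearly all libraries except the 14-month LPS pair, and the lost rows are mostly grey outside the LPS lists of 3 and 14 months.

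The libraries that the rule did not use separated the sets. Of the 665 gained regions, the 8 other lists called 63.2% to 83.6%, against 80.3% to 84.0% for all 33134 regions. Of the 554 lost regions they called 20.4% to 42.4%. The gained set was therefore at or below the general level, highest in the 24-month PBS lists (83.6% and 79.4%), whereas the lost set was far below it in every library. The lost set was called most often by the 3-month LPS lists, at 35.9% and 42.4%, while the 6 PBS lists called 20.4% to 28.2%. All 6 PBS lists called 300 gained and 30 lost regions, against 23595 of all 33134 regions. The numbers called in none of these 6 lists were 31 gained and 275 lost, against 2951 of all regions. At least 6 of the 8 other lists called 436 gained regions (65.6%) and 58 lost ones (10.5%), against 77.3% of all regions. None of the 8 called 6 gained (0.902%) and 136 lost regions (24.5%), against 4.46% of all regions. In full length the lists of 3-month LPS mice called nearly all of both sets, 98.5% and 98.0% of the gained and 93.1% and 96.0% of the lost. They called 97.5% and 97.4% of all regions. The 6 PBS lists in full length called 89.9% to 99.1% of the gained and 48.4% to 78.0% of the lost, against 88.8% to 96.3% of all regions. The contrast between the sets in the 3-month LPS libraries thus depended on list length, and that in the PBS libraries was smaller in full length.

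This contrast rested in part on the libraries that stood apart. In the first libraries of each age alone, the 6 PBS lists called a mean of 48.4% of the regions found only at 24 months and 51.7% of those found only at 14 months. In the second libraries alone the means were 67.3% and 25.0%, and over the gained and lost sets 75.1% and 24.4%. The difference between the sets in PBS libraries was therefore present in the second pair and not in the first.

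**Figure D2:**
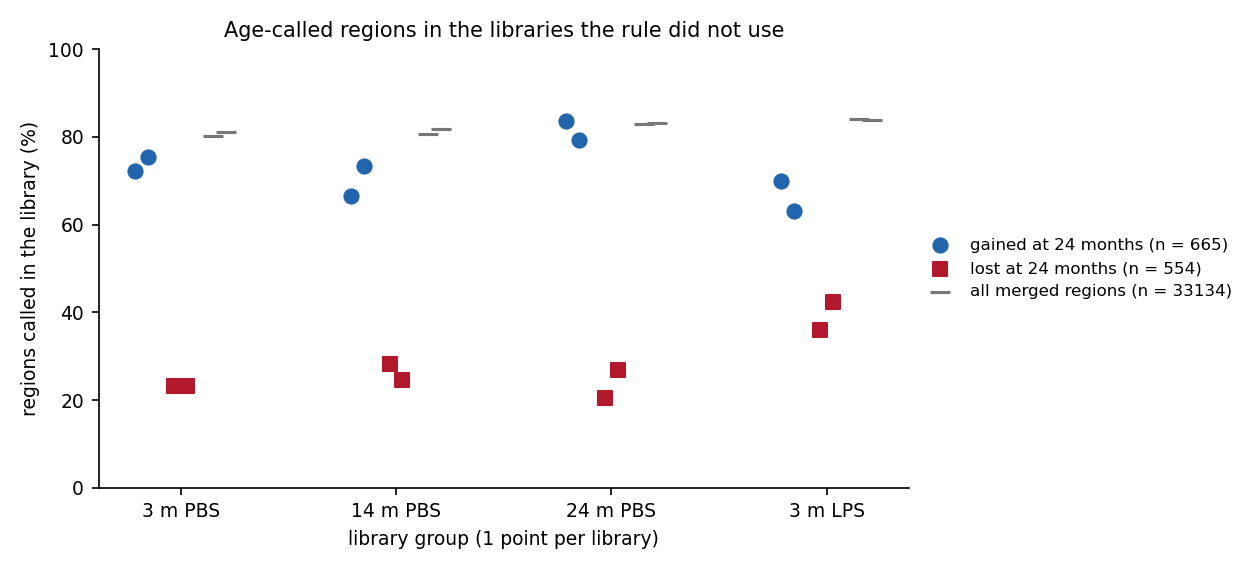
Share of the gained (blue circles), lost (red squares) and all merged regions (grey bars) that each of the 8 libraries outside the comparison called (vertical axis, %), by group, with 1 point per library. Gained regions lie between 63.2% and 83.6% and lost regions between 20.4% and 42.4%.

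Gained and lost regions also differed in where they lay. Of the gained regions 289 (43.5%) were promoters, within 1 kb of a start site, against 65 (11.7%) of the lost and 36.3% of all regions. Over whole equal-length lists the promoter share of peaks was 40.7% and 39.8% in the aged and 39.5% and 39.9% in the middle-aged libraries, a difference of 0.55 percentage points (exact permutation test, two-sided, p = 0.667). Introns held 54.5% of the lost, 31.7% of the gained and 37.0% of all regions. The median distance to the nearest start site was 2.04 kb for gained and 9.77 kb for lost regions, and 3.75 kb over all. Gained promoters were CpG-rich, with a median of 21 CpG dinucleotides in 301 bp against 22 for all promoters in the lists, whereas lost promoters had a median of 5. Outside promoters the medians were the same, at 4. Promoters made up 51.9% of the 108 gained and 13.1% of the 61 lost regions that were also absent from the full lists. They made up 28.6% and 11.5% of the regions that differed between the first libraries of each age, and 25.0% and 13.1% between the second. The higher promoter share of regions called at 24 months thus appeared in each pair alone, although in the pairs it lay below the 36.3% of all regions.

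The AP-1 motif TGANTCA, read in either orientation up to 150 bp from the summit, was found in 161 lost regions (29.1%), in 34 gained regions (5.11%) and in 13.9% of all regions. Outside promoters the shares were 29.9%, 6.12% and 18.1%, so the contrast was also present without the promoters. The NF-κB motif was found in 8.84% of lost, 4.51% of gained and 6.84% of all regions. In the first library of each age alone, it was in 6.28% of regions found only at 24 months and 6.07% of those found only at 14 months. In the second libraries alone these shares were 3.84% and 11.1%, so the NF-κB contrast was present in the second pair and not in the first. The motif of ETS factors at promoters, CCGGAAGT, was found in 4.36% of gained, 1.08% of lost and 3.49% of all regions. CTCF, a protein that shapes chromatin loops, had matches in 8.57% of gained, 5.96% of lost and 6.35% of all regions. AP-1 matches include every match to the longer MAF motif, which holds the same letters. Of the 161 lost regions with an AP-1 match, 119 were called in none of the 6 PBS lists, as were 275 of all 554 lost regions. Over all 33134 regions, 2951 were called in none of these lists, among them 1010 of the 4610 with an AP-1 match.

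The AP-1 contrast was not seen in every pair of libraries. It was 6.29% of regions found only at 24 months against 32.3% of those found only at 14 months in the second pair, but 15.1% against 16.5% in the first pair, near the 13.9% of all regions. Without the second 24-month library, the one closer on average to the PBS lists, it was 14.8% of the gained against 19.9% of the lost regions. In the 108 gained and 61 lost regions that were absent from the full lists of the other age it was 4.63% and 31.1%. Over whole lists, the share of peaks with an AP-1 match was 14.0% and 11.4% in the aged LPS libraries and 14.2% and 14.6% in the middle-aged ones, with 9.94% to 11.2% in the 4 PBS libraries of these ages. The 2 ages did not overlap, and the difference reached the smallest p the design allows (exact permutation test, two-sided, p = 0.333), but the difference of -1.70 percentage points was -0.408 without the second aged library and -2.99 without the first.

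**Figure D3:**
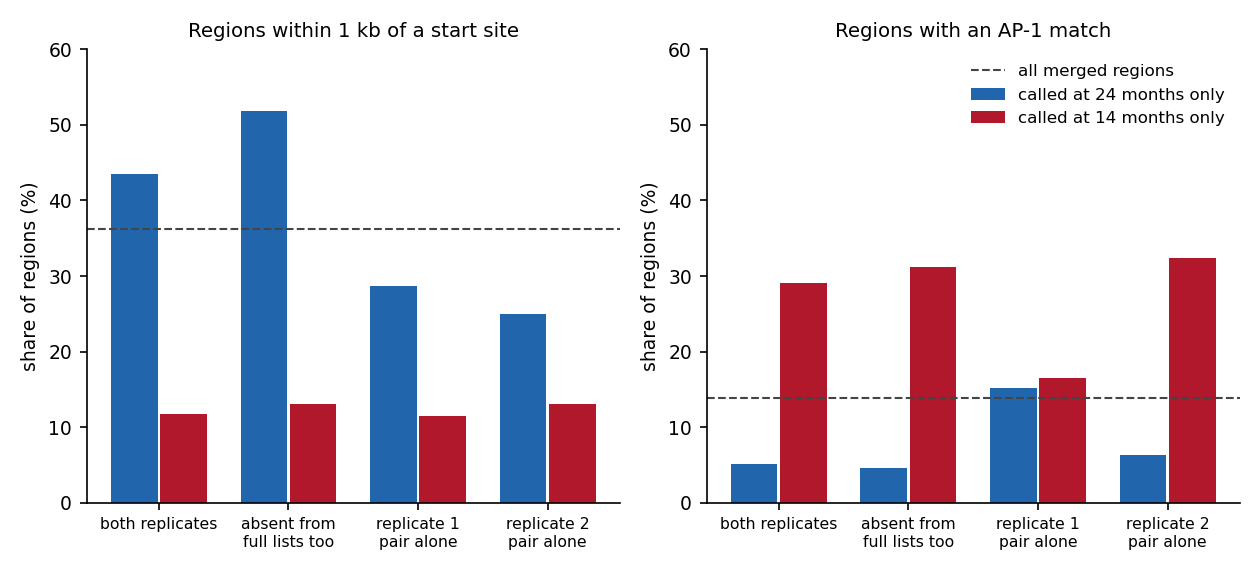
Share (%, vertical axes from 0) of promoter regions (left) and of regions with an AP-1 match (right) among regions called at 24 months only (blue) and at 14 months only (red), for both replicates, for the subset also absent from the full lists of the other age, and for each replicate pair alone, with a dashed line at all merged regions. The promoter bars differ in each set, while the AP-1 bars of the first pair stand at 15.1% and 16.5%.

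Members near genes of the lists were few. Of 99 regions nearest to 22 homeostatic microglia genes, 1 was gained and 5 were lost (5.05%, against 1.67% of all regions). The lost regions were near Slco2b1, Aif1 (the gene of the microglial marker IBA1), Mef2c, Gpr34 (a lysophospholipid receptor) and Fcrls, and the gained one was in an intron of Selplg, a selectin ligand gene. The Aif1 region stood at percentiles 29.2 and 37.3 at 14 months and at 12.5 and 20.9 of the full-length aged lists, and the Fcrls region at only 1.27 and 6.68. Of 113 regions near 34 inflammatory NF-κB targets, 1 was gained (Ccl5, a chemokine) and 2 were lost, near Nfkbia and Tnfaip3, which both restrain NF-κB. The Nfkbia region, 11.96 kb from the start site (chr12:55480472-55481275), stood at 30.5 and 30.9 at 14 months, was in neither full-length aged LPS list, and was called in both 24-month PBS lists (48.5 and 34.7).

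Among 143 regions near 29 myeloid transcription factor genes, 4 were gained, near Bach1, Bach2, Cebpb and Runx1, and 1 was lost, near Mef2c. The gained members stood low, between percentiles 2.94 and 31.7, with Bach2 highest. Restraint of inflammation had 2 gained of 119 regions, at the promoter of Il10ra, the receptor of interleukin-10 (21.2 and 44.2), and near Zc3h12a, a nuclease gene, and 1 lost. Interferon response genes had 1 gained of 38, near Ifit1 (27.6 and 25.5), and immediate early genes 1 gained of 83 at Nr4a1 and 2 lost, near Jund and Myc. The Myc region, 11.6 kb away, held an AP-1 match and stood at 22.2 and 21.8 at 14 months. Genes of Toll-like receptor 4 signalling (61 regions), antigen presentation (45), iron and oxidative stress (56) and the circadian clock (37) had no gained or lost region.

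The remaining lists had 1 or 2 members. Phagocytosis and lysosome genes had 2 lost of 99, near Lamp1 and Tfeb, lipid handling 1 lost of 70, near Scd1, disease-associated microglia 1 lost of 55, near Cst7, and TGF-β signalling 1 gained of 79, near Smad7. Genes that the study describes as rising (P-ADEM) or falling (N-ADEM) with age in microglia, lists that the study chose on its own samples and that are not independent evidence of direction, were used with 49 and 15 genes, fewer than the study's female lists hold. They had 0 gained and 1 lost of 92 regions and 2 gained and 1 lost of 52. The N-ADEM members were near Arap3 and Arhgap27 (gained) and Fcrls (lost), and the P-ADEM member was the Cst7 region. Microglial markers had 1 lost of 36, the Aif1 region. Of the marker lists of other cells, the monocyte and border macrophage list had 1 gained (Ccr2) and 1 lost (Vcan) of 7 regions and the oligodendrocyte list 1 lost (Mbp) of 13, and the granulocyte, lymphocyte, astrocyte, neuron and endothelial lists had none. With so few members, each list's share was set against 2.01% gained and 1.67% lost only as a description.

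Regions called in all 4 lists were compared by the height of their percentile. In limma, none of the 23217 shared regions passed an adjusted p of 0.05, with 0% called higher and 0% called lower at 24 months. The unadjusted p was under 0.05 at 1767 higher (7.61%) and 1634 lower (7.04%) regions. The median absolute difference between the means of the ages was 5.20 percentile points. Between single libraries it was 5.01 points for the aged and 3.71 for the middle-aged replicates. Across ages, single libraries differed by 4.96 points in the first pair and by 7.33 in the second. Of the 1767 regions, 80.9% were promoters and 3.74% held an AP-1 match. Of the 1634 regions, 15.2% were promoters and 30.3% held an AP-1 match, against 43.6% and 12.7% of all shared regions. Leaving out either library that stood apart kept this order: without the second 24-month library the promoter shares were 77.8% and 13.8% and the AP-1 shares 6.09% and 25.1%, and without the second 14-month library 85.1% and 13.2%, and 4.07% and 31.5%.

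The 8 shared regions with the smallest p among the higher ones were all promoters, and at all 8 the aged and middle-aged lists divided the region into different numbers of peaks. At Zmynd11, a chromatin reader gene (chr13:9763120-9765297), the percentiles were 85.3 and 88.9 at 24 months and 30.9 and 30.6 at 14 months, a difference of 56.4 ± 4.70 (SE, limma, adjusted p = 0.143). Both aged lists gave this region as 1 peak, and both middle-aged lists as 3. With the areas of all peaks in a region summed, the difference was 11.9, and by the significance at the summit it was 45.5. At Hipk3, a kinase gene, the difference of 26.7 ± 1.75 (limma, adjusted p = 0.139) became 4.92 with summed areas, and the region was 1 peak in each aged and 2 in each middle-aged list. The same division into 1 and 2 peaks held at Gna13, Phf12, Orai2, Ppp2r5b, Pogz and Zfp36l2, where summed areas left differences of 0.0837 to 4.45 points.

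The 8 lower regions were single peaks in all 4 lists, with the exception of Stxbp3. The largest fall among the 8 with the smallest p was in an intron of Pik3ap1, an adaptor of phosphoinositide 3-kinase (chr19:41371344-41371675), with percentiles of 8.44 and 8.52 at 24 months and 43.8 and 49.1 at 14 months. The difference was -38.0 ± 5.79 (limma, adjusted p = 0.231), and -36.9 with summed areas. No PBS library called this region, and the 3-month LPS lists had it at 17.1 and 6.603. A region 14.7 kb from Csf1r, the receptor that microglia need to survive (chr18:61090546-61091359), stood at 67.6 and 62.4 against 84.8 and 86.9, a difference of -20.9 ± 3.14 (limma, adjusted p = 0.230). Smaller differences were found near Batf3, a partner of JUN proteins (-8.57), Nuak2 (-11.7), Bin1 (-12.2), Cdh26 (-5.83) and Ank2 (-9.54), while Stxbp3 (-19.7), given as 2 peaks in the aged and 1 in the middle-aged lists, had -3.40 with summed areas. None of these passed the adjusted threshold.

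Among the lists, the homeostatic genes had 69 shared regions, of which 2 were higher and 13 lower at an unadjusted p under 0.05 in limma, where 7.61% and 7.04% of all shared regions were. Their median difference was -0.80, and it changed sign between the first pair alone (-5.71) and the second (1.25). Myeloid transcription factors had 4 higher and 13 lower of 100, phagocytosis and lysosome genes 4 and 12 of 75, and TGF-β signalling 2 and 9 of 54. Inflammatory NF-κB targets had 0 higher and 6 lower of 74 and a median difference of -2.60 points, against -0.18 over all shared regions. Their median was -0.56 in the first pair alone and -4.96 in the second. Disease-associated microglia (36 regions) had a median of -3.77 and P-ADEM genes (57 regions) of -3.57, which were -1.85 and 0.62 in the first pair alone and -4.76 and -6.66 in the second. Over the shared regions, no region of any list passed the adjusted threshold.

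As a single value per library, the promoters open in all 12 equal-length lists (9816 regions) had a median percentile of 75.7 and 76.4 in the aged LPS libraries and of 72.6 and 72.3 in the middle-aged ones. The 8 other libraries lay between 75.1 and 78.0, so the middle-aged LPS pair was the lowest of all. Regions outside promoters with an AP-1 match (1839 regions) gave 59.99 and 54.8 at 24 months and 64.3 and 65.6 at 14 months under LPS. The 3-month LPS pair lay at 58.8 and 60.6 and the 6 PBS libraries between 50.7 and 54.5. The middle-aged LPS pair was thus the highest, the first aged library lay within the 3-month LPS pair, and the second aged library next to PBS. The differences of 3.59 and -7.60 points had the smallest p possible, 0.333 (exact permutation test, two-sided, n = 2 per age), and became 3.84 and -7.09 with summed areas and 4.51 and -7.77 by summit significance. Without the second aged library the AP-1 difference was -4.98.

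The middle-aged LPS libraries also had slightly more peaks per promoter region, 1.04 and 1.07, against 1.04 and 1.00 in the aged ones, and fewer covered bases at the median promoter, 581 and 491 against 618.5 and 701. This was not particular to them. The first PBS libraries of 3 and 14 months had 1.04 and 1.05 peaks and 565 and 559 bases. Their median promoter percentiles were 75.5 and 75.1. The part that list length and peak division had in the promoter levels was not tested.

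**Figure D4:**
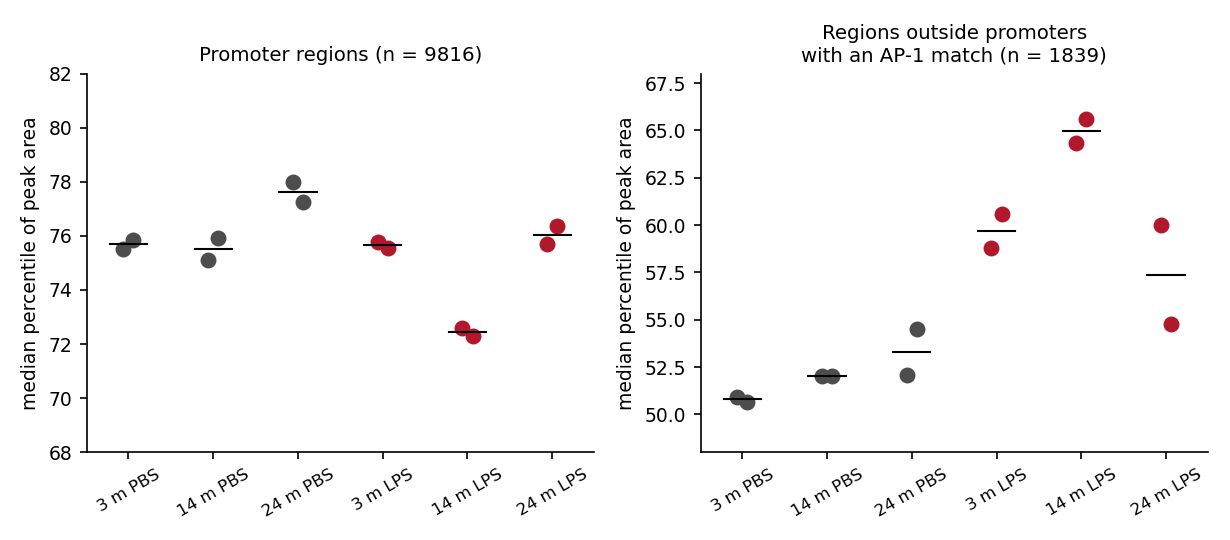
Median within-list percentile of peak area (vertical axes, which do not start at 0) of promoter regions (left) and of regions outside promoters with an AP-1 match (right) in each library, by age and treatment (PBS in grey, LPS in red, 1 point per library, a line at the group mean). The 14-month LPS pair is lowest at promoters, at 72.6 and 72.3, and highest at AP-1 regions, at 64.3 and 65.6.

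A response to LPS can be read from regions that the young libraries define. At 3 months, 1982 regions were called in both LPS and neither PBS list (opened), and 1629 in both PBS and neither LPS list (closed). The opened regions were called at 84.6% and 82.7% by the middle-aged LPS libraries, at 83.2% by the first aged one and at 55.0% by the second. The closed regions were called at 18.4% and 14.7%, 13.8% and 50.7%. Of all regions of the young lists, the middle-aged libraries called 82.3% and 80.4% and the aged ones 81.8% and 84.8%. The first aged library was thus close to the middle-aged pair in both sets, with opened regions called about as often as any region and closed regions far less often. The second aged library called both sets less often than regions in general, at similar shares. The mean difference between the ages was -14.6 percentage points for opened (exact permutation test, two-sided, p = 0.667) and 15.7 for closed regions (p = 1.00), within the spread of the aged replicates, and with the second aged library left out it was -0.45 and -2.70.

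The PBS libraries of the same ages gave 11.96% and 18.01% of the opened regions at 14 months and 40.3% and 43.3% at 24 months, and 73.2% and 77.6% against 51.7% and 55.2% of the closed regions. The 3 levels of the aged samples were thus 40.3% and 43.3% under PBS, 55.0% in the second LPS library and 83.2% in the first. In full-length lists the opened regions were called at 72.8% and 50.7% by the aged and at 77.6% and 46.3% by the middle-aged LPS libraries, the last being the short list. All 4 LPS libraries called 804 of the opened regions, both aged and neither middle-aged library 45, and the reverse 83. Among the 33134 merged regions of the comparison, a different set of regions, these patterns held at 23217, 665 and 554.

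**Figure D5:**
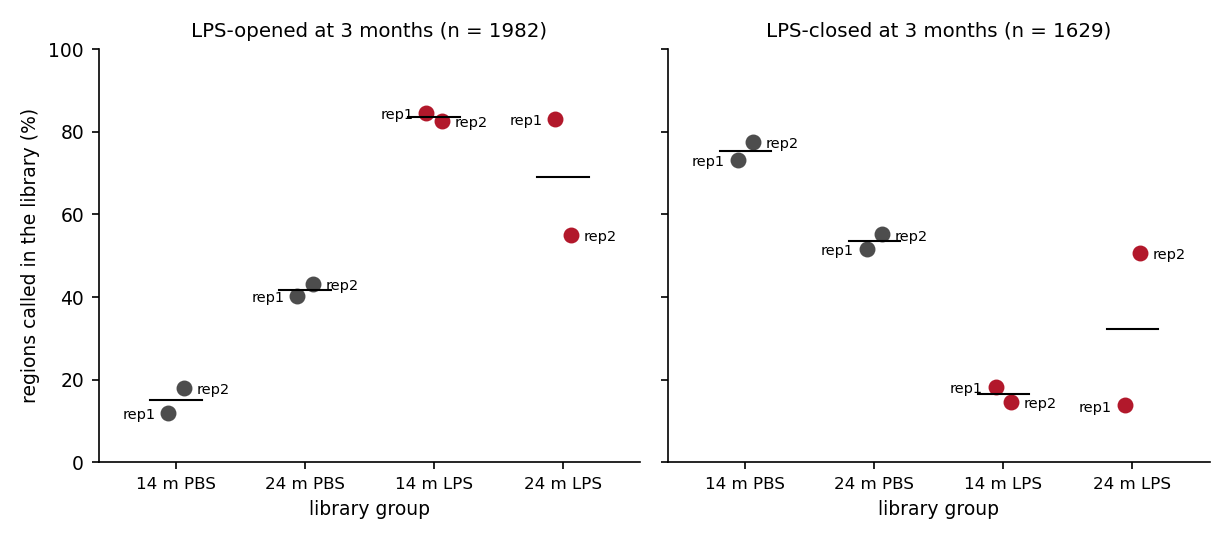
Share (%) of the regions opened (left) and closed (right) by LPS at 3 months that each 14-month and 24-month library called in equal-length lists (PBS in grey, LPS in red, with replicate numbers and a line at the mean). The first 24-month LPS library lies beside the 14-month LPS pair, at 83.2% and 13.8%, and the second lies at 55.0% and 50.7%.

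The same rule was applied to the PBS libraries of these ages. In their lists, 968 of 32014 regions were gained at 24 months (3.02%) and 626 lost (1.96%). Of the regions gained under LPS, 46 were called in both aged and neither middle-aged PBS list and 4 showed the reverse, and of those lost under LPS, 21 were lost and 11 gained under PBS. The 968 regions gained under PBS were called at 68.1% and 44.01% by the aged LPS libraries and at 53.5% and 48.7% by the middle-aged ones. The 626 lost under PBS were called at 13.9% and 49.4% against 32.1% and 29.1%. Of all PBS regions the aged LPS libraries called 81.4% and 85.1% and the middle-aged ones 81.4% and 79.4%, so every LPS library called both sets less often than regions in general. Under LPS the aged replicates lay on either side of the middle-aged pair in both cases (exact permutation test, two-sided, p = 1.00 for each).

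Whether the age difference itself differed between treatments was tested by an interaction over the 21416 regions called in all 8 lists of these ages. In limma, 12 regions (0.056%) had a larger and 7 (0.0327%) a smaller age difference under LPS than under PBS at an adjusted p of 0.05. Among these, Pogz, a zinc finger gene, had percentiles of 94.7 and 93.5 at 24 months and of 76.7 and 78.1 at 14 months under LPS, and of 92.1 to 94.1 in the 4 PBS libraries. The difference of 15.7 ± 1.39 (limma, adjusted p = 0.0313) became 0.48 with summed areas, and the middle-aged LPS lists gave this promoter as 2 peaks where the other 6 lists gave 1. Pogz was picked here after its values were seen. With summed areas or by summit significance none of the 21416 regions passed, with 1273 and 1253, and 1251 and 1481, at an unadjusted p under 0.05 in either direction.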

How the data were processed

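ATAC-seq libraries of mouse microglia were processed by the authors with Cutadapt 2.8 and Bowtie2 2.4.1 on mm10 (GRCm38), and peaks were called per library with Genrich (no version found in the sources). The deposited narrowPeak lists hold, per peak, a score that is the area of significance over its length and, as deposited, the −log10 p at its summit. Because reads are not counted in them, the depth behind a peak is unknown and no counting intervals are given. The lists of the 4 LPS libraries of 14 and 24 months were cut to equal length by area and ranked by the percentile of area within a list, a region with several peaks taking the highest. Peaks were merged at 1 bp of overlap, after dropping the 29 to 40 peaks of each list that lie on unplaced or unlocalized contigs. Regions were placed by GENCODE vM21, and motifs and printed sequences were read from RefSeq GRCm38.p6. Peak areas of different libraries were compared only by rank.

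Single values were compared by exact permutation (SciPy 1.17.1), and percentiles across regions by limma 3.58.1 in R 4.3.3 with Benjamini-Hochberg adjustment, which was tested on simulated data. Members, gene lists and motifs were chosen with earlier results of these data known. Named were the 10 gained and 10 lost regions of highest mean percentile nearest a protein-coding gene, the 8 highest promoters, members near listed genes, and the 8 shared regions of smallest p in each direction. Replicates are separate pools. Alternatives were full-length lists, the 20000 highest peaks, the peaks above the lowest quartile of summit significance, 50% coverage, a narrower motif window, each library left out, each replicate pair alone and a replicate block. Each pair alone, summed areas, summit significance, a crossed replicate block and the per-library motif shares and region levels with a library left out were added after the data were seen. Same-numbered libraries of the 2 ages did not deviate together (correlation -0.123).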

Additional observations from a re-analysis of the deposited data

Results flagged for a closer look

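In limma, 19 regions had an age difference under LPS that differed from that under PBS at an adjusted p of 0.05, by the test of that difference itself. None of them passed with summed areas or by summit significance. Of the 3 protein-coding regions with the smallest p in each direction, chosen after their values were seen, Cfap97d1, Pogz and Zfp36l2 were given as 2 peaks in both middle-aged LPS lists and as 1 in the other 6 lists. Their differences of 20.4, 15.7 and 14.7 percentile points were 2.79, 0.48 and 2.32 with summed areas. For Sema6b, Egr1 and Ago3 the age difference was 10.9, 6.37 and 40.3 points under PBS and 0.10, -1.24 and -13.0 under LPS. These regions were divided as well, into 2 peaks in both middle-aged PBS lists and 1 in both aged PBS lists. The differences between treatments, of -10.8, -7.61 and -53.3, became -3.30, -0.75 and -16.6 with summed areas.

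In 4 further values every library of the LPS comparison lay one way and every library of the PBS comparison the opposite way. They were picked for this order from a larger set of single values per library, which included the shares of all 20 motifs searched. No allowance was made for that search, and the AP-1 values are related to each other, as are the C/EBP values. The difference between treatments was not tested in these cases. The share of peaks with an AP-1 match was lower at 24 months by -1.70 percentage points under LPS and higher by 1.03 under PBS. The median percentile of AP-1 regions outside promoters differed by -7.60 under LPS and by 1.28 under PBS. Under PBS the ages were barely apart, with 52.09 the lowest value at 24 months and 52.02 the highest at 14 months. The share of peaks with the C/EBP motif TTGCGCAA differed by -0.0192 and 0.00875 percentage points, and that with its degenerate form by -0.555 and 0.521. The TTGCGCAA shares themselves were only 0.259% to 0.283% in the LPS lists of these ages and 0.227% to 0.241% in the PBS lists. The second aged library was the one closer on average to the PBS lists. Without it, the LPS differences were -0.408 for the AP-1 share, -4.98 for the AP-1 regions, -0.0157 for the C/EBP share and -0.217 for its degenerate form.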

How the results depend on the processing

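Full-length lists gave 1112 gained and 179 lost regions, and turned the promoter share of all peaks (0.55 to -2.21 percentage points, not that of the members), the Jaccard difference (-0.00282) and the lost region near Gpr34, which was then 1.07 percentile points higher at 24 months. The 20000 highest peaks kept 29 of the gained and 13 of the lost regions, and 8 of the 24 gained and 10 of the 30 lost that are named, and the peaks above the lowest quartile of summit significance kept 41 and 25, and 7 and 10. Requiring 50% of a region to be covered gave 1058 gained regions. The first libraries alone gave 2374 and 2321 and the second alone 3753 and 2771. Leaving out 1 library gave 1106 to 2477 gained and 1081 to 1807 lost regions, which by construction include those of both replicates. Peak number differed by -550 to 7572, with -550 without the second middle-aged library. The share of 3-month closed regions differed by -2.70 to 34.2, with -2.70 without the second aged library.

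In limma, the shared regions gave 22 calls in full-length lists and 0 to 1581 with 1 library left out, with 1581 without the first aged library, 2 without the second and 0 without either middle-aged one. The interaction gave 5 calls in full-length lists, 0 with summed areas and 0 by summit significance, and 6 to 821 with 1 library left out (821 without the first and 6 without the second aged library, 185 without the first middle-aged one). An age then rests on 1 library, assumed to vary like the others. With the replicate block the shared regions gave 0 calls and the interaction 3. The numbers mark no shared animals, and with the numbers crossed 0 shared regions were called. Phf12 was -0.26 by summit significance. The cause of these changes was not tested. Depth, which the lists do not give, limits what an uncalled region means.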

Other observations

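Some genes had more than 1 member. Gained regions came in pairs nearest Ankrd2, Arid4a, Ctnnd1, Fosl2, Frmd4a, Mrtfa, Plek, Rbfox1 and Sh3pxd2a, and lost regions nearest Capza2, Fam49b, Nav1, Pip4k2a, Tmem204 and Zbtb7a. Fosl2 encodes an AP-1 protein. Of the 3-month opened regions, 42 gained (6.32%) and 84 lost (15.2%) regions overlapped one, against 5.85% of all regions. Of the closed regions, 51 gained (7.67%) and 23 lost (4.15%) overlapped one, against 3.12%. With the first library of each age alone, 5.31% of 24-month-only and 8.62% of 14-month-only regions overlapped a closed region. For opened regions these shares were 6.70% and 8.14%. With the second libraries alone they were 18.04% and 3.36% for closed regions, and 4.32% and 25.7% for opened regions. The closed contrast was thus reversed in the first pair and the opened contrast smaller, while both were larger in the second pair.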
